A study of Homo sapiens with 10 samples.

Results

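Lysozyme and the late neutrophil granule genes were taken as 8 protein-coding genes, LYZ, LTF, LCN2, CAMP, MMP8, MMP9, CEACAM8 and PGLYRP1, chosen by symbol from 60603 genes in each of 2 gene tables from NB4 cells. NB4 is a human cell line derived from acute promyelocytic leukemia, in which myeloid maturation is halted at the promyelocyte. In the knockdown experiment, cells received a lentiviral pLKO.1 puro construct that was empty (EV) or encoded a hairpin against GSE1, shA1 or shB2, and RNA was collected after 48 h. In the inhibitor experiment, cells were treated for 24 h with DMSO or with 2 µM of the LSD1 inhibitor MC2580. Each of the 5 groups had 2 samples, which gave 6 libraries in the first experiment and 4 in the second. The only level used here is the base mean, the authors' average of the normalised count of a gene over libraries. The knockdown table lists it in 2 columns, beside the comparisons of shB2 and of shA1 with EV, and the columns differed for 0 of 60603 genes. It was therefore taken as the mean over the 6 libraries of a single fit, which the table does not state, and sums of normalised counts over 6 libraries rest on that reading. The base mean joins control and perturbed cells, so it shows how strongly a gene was expressed in an experiment but not whether a hairpin or MC2580 changed it. It also carries no error, and no difference below was tested against the spread between replicates.

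Neutrophil granules form in waves as the cell matures. Azurophil granules with myeloperoxidase appear in promyelocytes, specific granules with lactoferrin follow in myelocytes, and gelatinase granules come last. Lysozyme is made throughout these stages, and monocytes make it too. The late granule proteins are known for killing or starving microbes and for cutting the matrix that a migrating neutrophil crosses, and their genes are a common readout of granulocytic maturation in leukemia cells.

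Of the 8 genes, MMP9 and LYZ were strongly expressed, CAMP and PGLYRP1 were low, and LTF, LCN2, MMP8 and CEACAM8 were at or near 0. MMP9 and LYZ together held 99.8% of the summed base means of the 8 genes in the knockdown experiment and 99.9% in the inhibitor experiment. CAMP and PGLYRP1 had base means between 2.34 and 29.2, and LTF, LCN2, MMP8 and CEACAM8 did not exceed 1.16 in either experiment. Only 3 of the 8 genes reached a base mean of 10 in each experiment, or 37.5%, while 63.1% of the 19975 protein-coding genes did so in the knockdown experiment and 63.0% in the inhibitor experiment. The third gene was CAMP in the former and PGLYRP1 in the latter.

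LYZ (ENSG00000090382.6) encodes lysozyme, which cleaves the peptidoglycan of bacterial cell walls. In GRCh38 it spans chromosome 12 from 69348381 to 69354234, on the plus strand, and its canonical transcript has 4 exons. Its base mean was 4923 in the knockdown experiment and 9248 in the inhibitor experiment. LYZ ranked 1824th among the 17337 protein-coding genes above 0 in the knockdown experiment and 766th among 17091 in the inhibitor experiment, at the 89.5th and 95.5th percentile. The protein-coding genes nearest to it in base mean were GNAI3 and MRPS16 in the former and TRRAP and HSD17B10 in the latter. These ranks and neighbours take no account of gene length. Per kilobase of exons, LYZ lay higher, at the 96.9th percentile in the knockdown experiment and the 98.3rd in the inhibitor experiment.

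MMP9 (ENSG00000100985.7) encodes gelatinase B, the metalloproteinase after which gelatinase granules are named. It lies on the plus strand of chromosome 20, from 46008908 to 46016561, and has 13 exons. Its base mean of 15005 in the knockdown experiment was the highest of the 8 genes and ranked 392nd among protein-coding genes, at the 97.7th percentile. In the inhibitor experiment its base mean was 10398, ranked 645th, at the 96.2nd percentile. RANBP1 and HOMER3 were nearest to it in base mean there.

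The order of LYZ and MMP9 depended on the length by which their levels were divided. Per kilobase of annotated exons, MMP9 had a base mean of 6423 and LYZ one of 2855 in the knockdown experiment, and these values were 4451 and 5364 in the inhibitor experiment. By exon length, then, MMP9 was 2.25 times as high as LYZ in the first, and LYZ 1.21 times as high as MMP9 in the second. Coding sequence makes up 25.8% of the exons of LYZ and 90.8% of those of MMP9. The counts were not limited to coding sequence, so division by coding length by itself raises LYZ over MMP9. Per kilobase of coding sequence, LYZ was 1.57 times as high as MMP9 in the knockdown experiment and 4.25 times as high in the inhibitor experiment. Without replicate values, it could not be said whether the 2 genes differed beyond their spread.

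CAMP (ENSG00000164047.5) encodes cathelicidin, the precursor of the antimicrobial peptide LL-37, and is stored in specific granules. It lies on the plus strand of chromosome 3, from 48223347 to 48225491, and has 4 exons. Its base mean was 29.2 in the knockdown experiment, a sum of 175 normalised counts over 6 libraries, and 4.15 in the inhibitor experiment, a sum of 16.6 over 4 libraries. These values put CAMP at the 32.9th and 21.4th percentile of protein-coding genes above 0, or at the 43.4th and 30.7th per kilobase of exons. Per kilobase of exons, LYZ was 72.8 times as high as CAMP in the knockdown experiment and 963 times as high in the inhibitor experiment. Per kilobase of coding sequence, these ratios were 194 and 2560.

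PGLYRP1 (ENSG00000008438.5) encodes a peptidoglycan recognition protein of specific granules. It lies on the minus strand of chromosome 19, from 46019153 to 46023053, and has 3 exons. Its base mean was 2.34 in the knockdown experiment, a sum of 14.1 normalised counts over 6 libraries, and 12.1 in the inhibitor experiment, a sum of 48.4 over 4 libraries. The order of CAMP and PGLYRP1 thus differed between the experiments. It rests on low sums, 14.1 for PGLYRP1 in the knockdown experiment and 16.6 for CAMP in the inhibitor experiment, and was not tested. Per kilobase of exons, CAMP was 11.8 times as high as PGLYRP1 in the first, and PGLYRP1 3.07 times as high as CAMP in the second.

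LTF (ENSG00000012223.12) encodes lactoferrin, the iron-binding protein that defines specific granules. It lies on the minus strand of chromosome 3, from 46435645 to 46485234, 1.74 Mb from CAMP. It was listed at 0 in the knockdown experiment and had a base mean of 1.16 in the inhibitor experiment, a sum of 4.65 normalised counts over 4 libraries. LCN2 (ENSG00000148346.12), on the plus strand of chromosome 9 from 128149071 to 128153453, encodes lipocalin 2, which binds bacterial siderophores. It was listed at 0 in both experiments, as were 9.72% of protein-coding genes.

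MMP8 (ENSG00000118113.12) encodes neutrophil collagenase, a second metalloproteinase of late granules. Its base mean was 0.084 in the knockdown experiment and 0.918 in the inhibitor experiment, sums of 0.506 and 3.67 normalised counts. MMP8 lies on the minus strand of chromosome 11, from 102711796 to 102727050, in a run of metalloproteinase genes. Of its listed relatives there, MMP1, MMP3, MMP7, MMP10, MMP12 and MMP13, none exceeded a base mean of 0.787 in the knockdown experiment or 1.23 in the inhibitor experiment. CEACAM8 (ENSG00000124469.12), on the minus strand of chromosome 19 from 42580243 to 42595055, encodes CD66b, a surface and granule membrane protein of neutrophils. It was listed at 0 in the knockdown experiment and had a base mean of 0.366 in the inhibitor experiment, a sum of 1.46 normalised counts. CEACAM8 is similar in sequence to other CEACAM genes, so its value is uncertain, and the division of reads between them was not tested. The 6 listed relatives on chromosome 19 had base means of at most 1.72 in the knockdown experiment and 1.67 in the inhibitor experiment. At these levels, a few normalised counts in all, no order can be given among LTF, LCN2, MMP8 and CEACAM8.

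**Figure D1:**
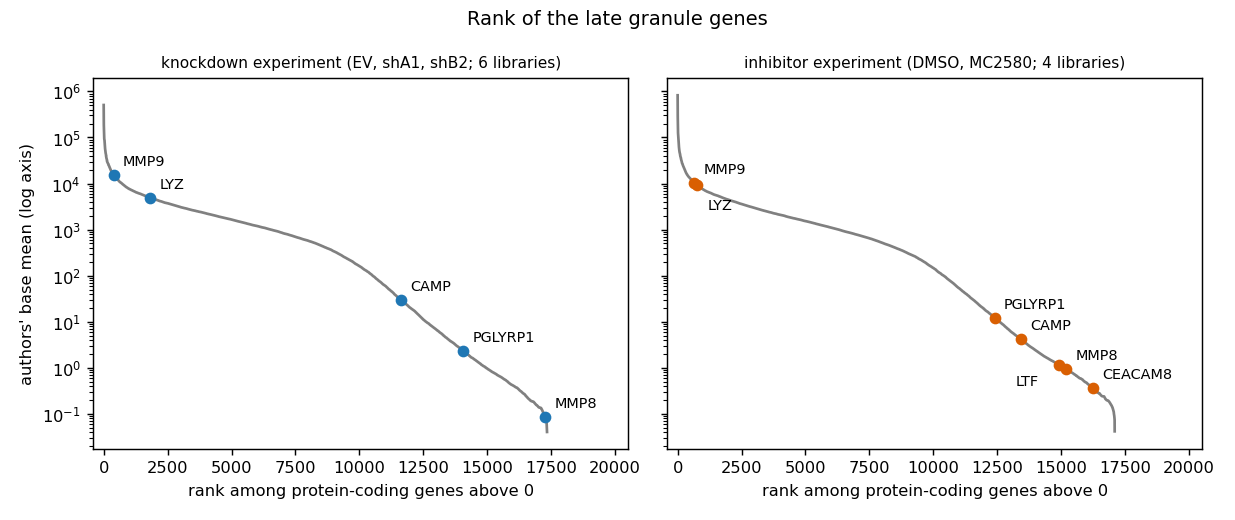
Base mean on a log axis against rank for the protein-coding genes above 0, with the knockdown experiment on the left and the inhibitor experiment on the right. The grey line is all such genes and the points are the late granule genes above 0: 5 in the knockdown experiment and 7 in the inhibitor experiment. MMP9 and LYZ sit near the left end of each curve, and the others sit on its falling part.

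Promoter sequences from RefSeq (GRCh38.p14), which run from 250 bases before to 50 bases after an annotated start, were found for 5 of the 8 genes: CAMP, CEACAM8, LCN2, LTF and MMP8. Those of CAMP and LCN2 are shown because CAMP had the highest base means among these 5 genes and LCN2 was the only 1 of them listed at 0 in both experiments. Both strands were searched for TTGCNNAA, a form of the site of C/EBP factors, for GAGGAA, a form of the site of PU.1, for TATAAA, and for AATC, the core of the site of GFI1, a repressor that recruits LSD1. Capitals mark matches to the first 3 motifs. The CAMP promoter is chr3:48223245-48223544 and the LCN2 promoter chr9:128149203-128149502, both on the plus strand. Their annotated starts, 48223495 for CAMP and 128149453 for LCN2, lie inside the gene spans given above, which begin at 48223347 and 128149071. The LCN2 promoter thus lies wholly within the span of its gene.
CAMP: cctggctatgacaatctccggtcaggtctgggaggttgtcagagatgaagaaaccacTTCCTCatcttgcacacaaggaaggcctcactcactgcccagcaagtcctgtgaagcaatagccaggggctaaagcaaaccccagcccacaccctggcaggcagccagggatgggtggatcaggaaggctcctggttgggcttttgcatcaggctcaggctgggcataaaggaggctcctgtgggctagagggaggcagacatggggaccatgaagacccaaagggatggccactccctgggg
LCN2: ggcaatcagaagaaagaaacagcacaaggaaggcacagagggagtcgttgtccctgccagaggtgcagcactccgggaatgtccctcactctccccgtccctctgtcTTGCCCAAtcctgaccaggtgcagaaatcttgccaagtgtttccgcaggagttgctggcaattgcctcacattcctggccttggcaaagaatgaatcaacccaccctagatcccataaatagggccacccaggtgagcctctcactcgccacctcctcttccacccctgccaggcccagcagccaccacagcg
The CAMP promoter held 1 match to GAGGAA, on the reverse strand, 1 to AATC, and 0 to TTGCNNAA and TATAAA. The LCN2 promoter held 1 match to TTGCNNAA, 4 to AATC, 1 of which overlaps the end of the TTGCNNAA match, and 0 to GAGGAA and TATAAA. Of 35116 promoters of the same length in the table, 10.5% held TTGCNNAA, 27.9% GAGGAA, 11.5% TATAAA and 69.0% AATC. MMP8 and 1 of the 3 LTF promoters also held TTGCNNAA, and CEACAM8 did not. The matches are letters in a window and were not related to the levels.

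Other granule genes showed where the late genes stood in the program. The counts for each list below stand beside 63.1% and 63.0% of all protein-coding genes that reached a base mean of 10. Of 12 azurophil granule genes, 10 reached a base mean of 10 in each experiment. BPI, at 10.6 and 17.2, and DEFA3, at 10.8 and 11.3, were among them but close to that minimum. MPO, which encodes myeloperoxidase, was the highest azurophil gene, with a base mean of 506765 in the knockdown experiment and 824818 in the inhibitor experiment. Per kilobase of exons, MPO was 17.8 and 41.9 times as high as MMP9, and 40.1 and 34.7 times as high as LYZ. By coding length, it was 32.1 and 75.3 times as high as MMP9, and 20.5 and 17.7 times as high as LYZ. ELANE, which encodes neutrophil elastase and belongs to the same granules, had base means of 1.10 and 3.87, in the range of the low late genes, as did DEFA4 with 1.14 and 3.94.
Of 10 other specific granule genes, 6 reached a base mean of 10 in the knockdown experiment and 5 in the inhibitor experiment. CYBA and CYBB, subunits of the NADPH oxidase of granule membranes, had base means of 12287 and 5211 in the knockdown experiment and of 19927 and 4351 in the inhibitor experiment. CRISP3 and OLFM4, soluble proteins of specific granules, were listed at 0 in the knockdown experiment and had base means of 0.203 and 1.48 in the inhibitor experiment, as low as LTF. Between these lay STOM, at 2836 and 3137, CHI3L1, at 445 and 406, and HP, which encodes haptoglobin, at 43.3 and 13.1. TCN1 was at 13.4 and 7.16, ORM1 at 1.14 and 0.678, and BPIFA1 was listed at 0 in both experiments.
Of 8 genes of gelatinase and ficolin granules, 7 reached a base mean of 10 in each experiment. FCN1, which encodes ficolin 1, had base means of 1626 and 842, and MMP25, a membrane-bound metalloproteinase, 1409 and 876. ARG1, which encodes arginase 1, was the exception, at 1.79 and 0.738. Of 7 genes of the plasma membrane and secretory vesicles, 3 reached a base mean of 10 in each experiment, and CSF3R, the receptor of G-CSF, was the highest, at 2641 and 2562.

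**Figure D2:**
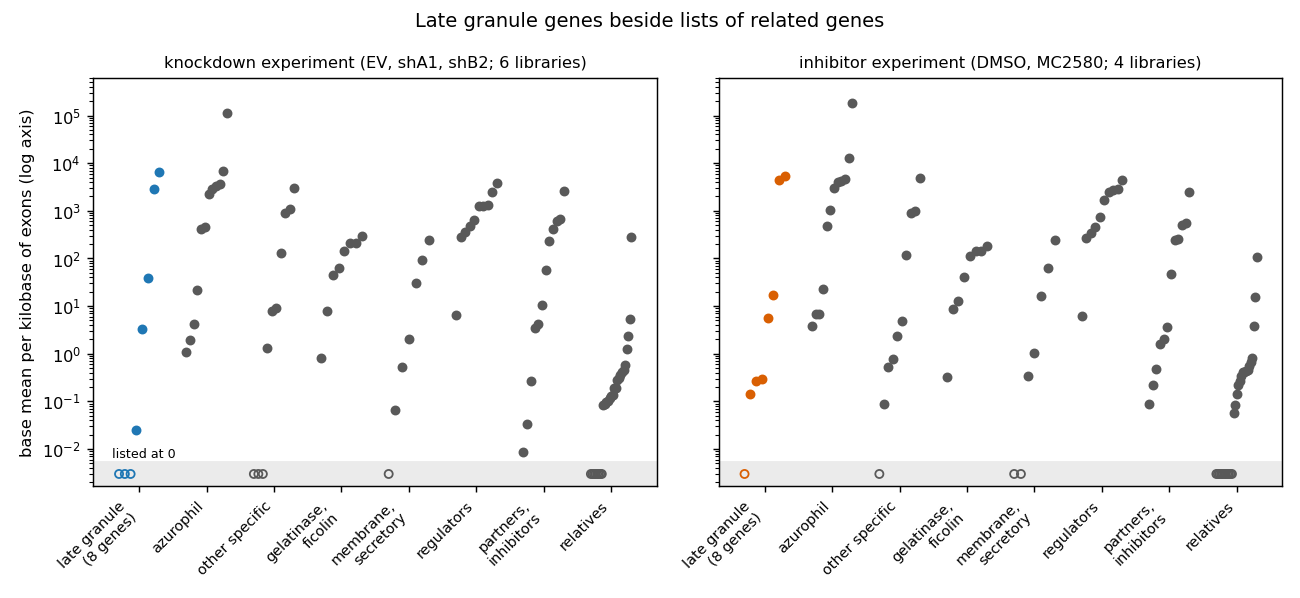
Base mean per kilobase of annotated exons on a log axis, for the 8 late granule genes (coloured) and the genes of 7 lists (grey), with the knockdown experiment on the left and the inhibitor experiment on the right. Each point is a gene, and open points in the grey band are listed at 0. The late granule genes extend from 0 to 6423 in the knockdown experiment and from 0 to 5364 in the inhibitor experiment, and MPO, at 114471 and 186315, is the highest point of each panel.

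Genes that regulate the granule program were expressed in both experiments, and 10 of 10 had a base mean of at least 10. CEBPE, a factor needed for specific granules, had base means of 2263 in the knockdown experiment and 4998 in the inhibitor experiment. Those of GFI1 were 7359 and 9414, and those of SPI1, which encodes PU.1, were 7723 and 9239. In the same base means, each pooled over the libraries of an experiment, LTF, LCN2, MMP8 and CEACAM8 were at or near 0. CEBPE, GFI1 and SPI1 were well above the median of protein-coding genes above 0. That median was 409 in the knockdown experiment and 396 in the inhibitor experiment. Levels in single libraries are not known.
Among partners and inhibitors, 9 of 12 genes reached a base mean of 10 in the knockdown experiment and 8 in the inhibitor experiment. TIMP1, an inhibitor of MMP9, had base means of 3742 and 3658. Per kilobase of exons, MMP9 was 2.48 times as high as TIMP1 in the knockdown experiment and 1.76 times in the inhibitor experiment. By coding length, these ratios were 1.17 and 0.832, so that the order of MMP9 and TIMP1 in the inhibitor experiment depended on the length used. MMP2, which encodes the other gelatinase, had base means of 1328 and 502, and MMP9 was 22.8 and 41.7 times as high per kilobase of exons, or 10.5 and 19.3 times by coding length. SLC22A17, a receptor for lipocalin 2, had base means of 0.142 and 0.386. Of 27 close relatives of the 8 genes, 4 reached a base mean of 10 in each experiment, and MMP2 was the highest. The lysozyme-like genes LYZL1, LYZL2 and LYZL6 were listed at 0 in both experiments, LYZL4 had base means of 0.586 and 0, and none of them approached LYZ.

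Because the 2 experiments were normalised separately by the authors and differ in transduction, time and treatment, their levels can be set side by side only as a description. Each base mean was divided by the sum of its table and given in parts per 1000000 (ppm). LYZ was at 121 ppm in the knockdown experiment and 224 ppm in the inhibitor experiment, a ratio of 1.85. Among the 6410 protein-coding genes with a geometric mean of both base means of at least 1000, 95% had a ratio under 1.49, and LYZ lay at the 99.5th percentile. MMP9 was at 370 and 252 ppm, a ratio of 0.682, which lay at the 11.9th percentile of the same genes. So the 2 abundant genes differed in opposite directions between the experiments, and only LYZ lay outside the range that holds the middle 90% of genes of its level.
CAMP was at 0.720 ppm in the knockdown experiment and 0.101 in the inhibitor experiment, a ratio of 0.140. This was at the 0.587th percentile of the 2130 genes with a geometric mean from 10 to 100, among which 5% had a ratio under 0.326. PGLYRP1 was at 0.058 and 0.294 ppm, a ratio of 5.08, at the 97.3rd percentile of the 2236 genes with a geometric mean from 1 to 10. Whether these ratios come from the control cells, from the perturbed cells or from 1 library cannot be told apart in the base means.

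**Figure D3:**
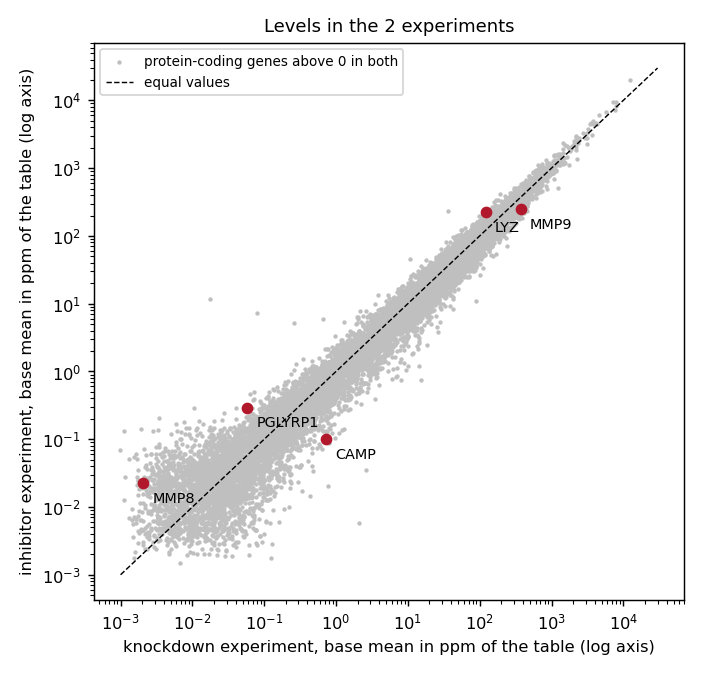
Base mean, in ppm of the sum of its table, of each protein-coding gene above 0 in both tables, knockdown experiment on the x axis and inhibitor experiment on the y axis, both log. Grey points are all such genes, red points the late granule genes, and the dashed line marks equal values. LYZ and PGLYRP1 lie above the line, at ratios of 1.85 and 5.08, and MMP9 and CAMP below it, at 0.682 and 0.140.

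The label of the cells was checked with defining genes. Of 5 promyelocyte genes, MPO, PRTN3, AZU1 and CTSG had base means between 723 and 824818 over both experiments, and ELANE was near 0. The myeloid genes ANPEP, CD33, SPI1 and CEBPE had base means of at least 2263. Of 17 genes of the monocyte, erythroid, T cell, B cell, eosinophil and megakaryocyte lineages, 11 reached a base mean of 10 in the knockdown experiment and 9 in the inhibitor experiment. Of all protein-coding genes, 63.1% and 63.0% did so, and these counts alone do not show that other lineages were absent. HBG1 and PF4 were listed at 0 in both experiments and CD163, CD3E and MS4A1 did not exceed 2.98, while PRG2, a granule gene of eosinophils, had base means of 53954 and 55165 and CD3D, a T-cell receptor chain, 866 and 869. GSE1, the target of the hairpins, had base means of 2963 and 4441, and KDM1A, which encodes LSD1, 7648 and 6285. A base mean over knockdown and control cells does not check the knockdown. None of 8 housekeeping genes, a list added after the tables were seen, was listed at 0, and the lowest, TUBB, had base means of 8155 and 5274.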

How the data were processed

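Per the labels and the study's methods, mRNA-seq libraries were made with TruSeq from total RNA, and reads were mapped to hg38 with STAR 2.7, quantified with RSEM and normalised and compared with DESeq2. The RSEM and DESeq2 versions and the gene annotation are not given in the sources used here. The signal used is the base mean, which the authors made by averaging normalised counts over libraries. In the knockdown table it was read from the column of the shB2 comparison (4-2), and its values equalled those beside the shA1 comparison (3-1) for 60603 of 60603 genes. The remaining value columns deposited by the authors hold their own comparisons of shA1, shB2 and MC2580 with the controls (fold changes, standard errors, statistics and p-values) and were not used. The tables hold no value per library, so the depth of each library is unknown, no test between groups was run, and the edgeR test planned for counts per library could not be made. The base means summed to 40543100 in the knockdown experiment and 41201100 in the inhibitor experiment.

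Stable gene identifiers were matched to GENCODE release 44 (GRCh38) for 19905 of 19975 protein-coding genes, and levels were divided by the summed exons of a gene, in kilobases. Percentiles and ranks were taken among protein-coding genes with a base mean above 0, without division by length unless stated. No fold between genes at or under a base mean of 1 was computed. The text names the 8 genes, 7 lists of related genes (86 genes), GSE1, KDM1A, cell type markers and the 2 protein-coding genes nearest to each abundant gene, except for a pair of results that are not reported here. Members and lists were chosen with earlier results of these data known. Calculations used Python 3.11.15 and pandas 2.3.3. The percentile and the scaling by a median ratio were tested on simulated data, and the other calculations were not. The submitters' processing notes also name bcl2fastq 2 and FastQC 0.11.5.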

Additional observations from a re-analysis of the deposited data

How the results depend on the processing

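The base means hold no replicate, and leaving out a replicate was not possible. No paired analysis was possible because the columns used are averages over all libraries and carry no replicate numbers.
The ratio of LYZ to MMP9 was 0.445 per kilobase of exons in the knockdown experiment. It reversed to 1.57 by coding length and was 0.328 without division by length. In the inhibitor experiment it was 1.21 by exons, 4.25 by coding length, and reversed to 0.889 without division by length. Coding length was also tried for 6 other ratios between genes in each experiment, a choice made after the data were seen. The ratio of MMP9 to TIMP1 in the inhibitor experiment reversed from 1.76 to 0.832, and the other 11 values kept their direction.
Ranked only among protein-coding genes that reached a base mean of 10, the percentiles in the knockdown experiment were 85.5 for LYZ, 96.9 for MMP9 and 7.73 for CAMP, and in the inhibitor experiment 93.9 for LYZ, 94.9 for MMP9 and 1.36 for PGLYRP1. PGLYRP1 in the former and CAMP in the latter fell below this minimum and got no value. Among all protein-coding genes, the percentiles were 90.9 for LYZ, 98.0 for MMP9, 41.8 for CAMP and 29.6 for PGLYRP1 in the knockdown experiment. They were 96.2, 96.8, 32.8 and 37.9 in the inhibitor experiment. Per kilobase of exons, among genes above 0, they were 96.9, 98.8, 43.4 and 28.5 in the knockdown experiment. The per-kilobase values in the inhibitor experiment were 98.3, 97.9, 30.7 and 37.4.
The ratio of the inhibitor to the knockdown experiment was 1.85 for LYZ, 0.682 for MMP9, 0.140 for CAMP and 5.08 for PGLYRP1. Scaled to protein-coding genes, it was 1.85, 0.684, 0.140 and 5.09. Scaled to the median ratio of 0.953 over 10916 genes that reached a base mean of 50 in each table, it was 1.97 for LYZ, 0.727 for MMP9, 0.149 for CAMP and 5.42 for PGLYRP1, so that no ratio crossed 1.
With a minimum base mean of 1 instead of 10, 5 instead of 3 of the 8 genes passed in the inhibitor experiment. The other counts of genes above the minimum, at 1 or at 50, stayed within 1.5 times the values given.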
